A study of Mus musculus with 55 samples.

Results

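The comparison set 4 libraries of Tet2-/- LT-HSCs against 4 libraries of Tet2-/- ST-HSCs, 8 of the 55 samples of the series, across all expressed genes. Libraries were taken by their labels, as the knockout libraries of these populations in the first of the study's tables. Both populations came from the bone marrow of C57BL/6 mice with floxed Tet2 alleles and an Mx1-Cre transgene. Cre was induced at 4 weeks of age with 5 doses of poly(I:C), given every other day, and the mice were kept for 16 weeks after induction. Both groups therefore share the deletion, the Cre and the poly(I:C). The Mx1 promoter answers to interferon and is not restricted to blood cells, so the deletion need not be limited to them. Both were sorted from lineage-negative cells with cKit and Sca1 but without CD48, and CD150 alone separated them, present on LT-HSCs and absent from ST-HSCs. The labels give 200 cells for each sort and the methods about 300. Wild-type (WT) libraries of the same table, 3 for each population, were used only to see where the knockout differed. No source used here says whether WT mice received poly(I:C).

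Hematopoietic stem cells stand at the top of the blood system. Long-term HSCs (LT-HSCs) are mostly quiescent and rebuild all lineages for life after transplantation, whereas short-term HSCs (ST-HSCs) do so for a limited time, enter cycle more readily and begin to express genes of the myeloid and lymphoid programs. Tet2 encodes a dioxygenase that oxidizes 5-methylcytosine at CpG dinucleotides, and its loss in these cells is frequent in clonal hematopoiesis and myeloid neoplasia.

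The 8 libraries held between 59266087 and 88456663 counts, with 17586 to 19095 genes detected and 8.82% to 14.5% of counts on the mitochondrial genome. Over the 15673 genes tested, log2 CPM correlated at 0.892 to 0.919 within LT-HSCs, at 0.901 to 0.928 within ST-HSCs and at 0.879 to 0.918 between them. Levels are given as CPM, counts relative to library size after scaling by the trimmed mean of M values (TMM). Changes are log2 fold changes of LT-HSCs over ST-HSCs fitted by edgeR, and calls required 2-fold or more with p under 0.05 after Benjamini-Hochberg adjustment. A call is edgeR's unless DESeq2 is named. No source says whether libraries with the same number came from the same mouse, so that p-values measure the spread between these samples. In sorted bulk cells, fewer cells that express a gene and less RNA per cell cannot be told apart.

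In the knockout, 27 genes were called (0.172% of those tested), of which 7 were higher in LT-HSCs (0.0447%) and 20 were lower (0.128%). All 27 are annotated as protein coding. The strand setting of the counting is not given in the sources used here, and reads of Cd52, Emb, Fbxw4 and Uba7 cannot be told apart from those of the protein-coding genes they overlap (Crybg2, Gm17509, Gm17018 and Gm20661). The same limit holds for Cd34, H2afy and Mpo, each with an antisense gene (Gm16897, Gm47071 and Gm11505), and for Tgfbr3 and Eya4, which overlap noncoding or unclassified genes. The higher genes were Slamf1, Mllt3, Uba7, Tgfbr3, Gkn3, Lbhd2 and Eya4. The lower genes included the chemokine Ccl3, the neutrophil granule enzyme Mpo, the lymphoid polymerase Dntt and the surface antigens Cd34 and Cd52. The 4 LT-HSC values did not overlap the 4 ST-HSC values for any called gene, against 4.77% of all tested genes, and each had the smallest p that an exact two-sided permutation of 4 against 4 libraries allows (p = 0.0286). Both follow largely from the choice of genes by their difference in these libraries and are no further support. The number of calls was lower without any single library. Without LT-HSC replicates 2, 3, 4 and 5 in turn it was 13, 8, 9 and 10, and without ST-HSC replicates 2, 3, 4 and 5 it was 10, 7, 6 and 7. Eya4, Gkn3, Lbhd2, Tgfbr3, Emb, H2-Ob, Gcsam, Serpinb1a, Tmsb10 and Fbxw4 were each called in none of the 8 fits that left out a library. DESeq2, the tool the authors used, called 401 of 17462 genes (2.3%), 225 higher (1.29%) and 176 lower (1.01%), with all 27 among them. Of the 27, 18 were called without the filter on low counts and 14 in a fit of all 24 knockout libraries. With the replicate number as a block, 1 of the 27 was called (Ccl3), though no source ties the numbers to mice.

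**Figure D1:**
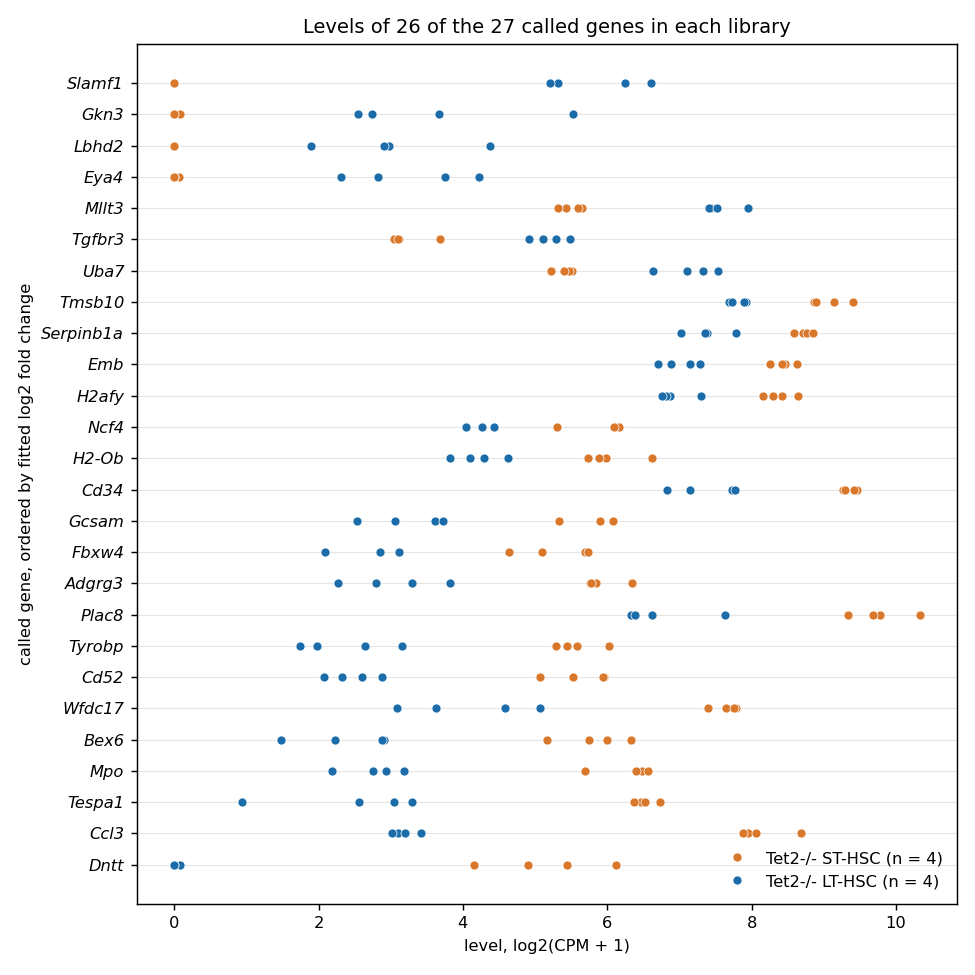
Level of 26 of the 27 called genes in each Tet2-/- library, as log2(CPM + 1), with genes ordered by their fitted log2 fold change. Points are single libraries, 4 of LT-HSCs (blue) and 4 of ST-HSCs (orange), and the colors do not overlap in any row.

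The sequences before the start sites of 5 called genes are printed. Mllt3, Ccl3, Mpo and Dntt were called whichever library was left out, and Wfdc17 is the called neighbor of Ccl3. They come from RefSeq on GRCm38.p6 and read 5′ to 3′ on the gene's strand. Each window opens 250 bases before the RefSeq start and ends there, or earlier where GENCODE vM21 starts the gene earlier. The windows are Mllt3 at chr4:88033408-88033657 (minus strand), Ccl3 at chr11:83649379-83649628 (minus strand), Wfdc17 at chr11:83703806-83703990 (plus strand), Mpo at chr11:87793534-87793580 (plus strand) and Dntt at chr19:41029025-41029274 (plus strand). Capitals mark letters of hematopoietic factor motifs searched on both strands: AGATAA for GATA factors, GAGGAA for PU.1, TGTGGT for RUNX, TTGCNNAA for C/EBP and CAGCTG for an E-box.
Mllt3: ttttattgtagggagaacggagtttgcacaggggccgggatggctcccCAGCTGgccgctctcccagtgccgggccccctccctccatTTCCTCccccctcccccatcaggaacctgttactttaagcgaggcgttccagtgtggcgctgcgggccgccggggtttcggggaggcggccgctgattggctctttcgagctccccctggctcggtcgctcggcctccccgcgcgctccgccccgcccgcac
Ccl3: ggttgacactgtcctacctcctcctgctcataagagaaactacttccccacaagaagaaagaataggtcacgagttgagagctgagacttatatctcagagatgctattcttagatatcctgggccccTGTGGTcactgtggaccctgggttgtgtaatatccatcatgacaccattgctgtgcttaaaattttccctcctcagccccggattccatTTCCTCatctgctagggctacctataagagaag
Wfdc17: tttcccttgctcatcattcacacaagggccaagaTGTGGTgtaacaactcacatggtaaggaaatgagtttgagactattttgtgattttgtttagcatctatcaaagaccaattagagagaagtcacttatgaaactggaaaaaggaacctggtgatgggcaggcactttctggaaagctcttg
Mpo: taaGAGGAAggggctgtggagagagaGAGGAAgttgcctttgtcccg
Dntt: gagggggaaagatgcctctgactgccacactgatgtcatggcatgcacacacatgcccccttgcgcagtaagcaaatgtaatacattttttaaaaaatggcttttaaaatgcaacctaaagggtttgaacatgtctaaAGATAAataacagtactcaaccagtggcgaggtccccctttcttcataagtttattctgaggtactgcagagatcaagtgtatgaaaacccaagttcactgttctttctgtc
The Mllt3 window held 23 CpG dinucleotides, whereas those of Ccl3 and Dntt held 2 each. Promoters were matched for 18 of the 27 genes, 6 of the higher and 12 of the lower. Over the full 250 bases, GAGGAA stood in 7 of the 12 lower and 2 of the 6 higher promoters, against 23.3% of all 32851 promoters. For Wfdc17 and Mpo the full windows run past the GENCODE start, and the GAGGAA match of Wfdc17 is not in its printed window. TGTGGT stood in 5 of 12 and 1 of 6, against 14%, and AGATAA in 1 of 12 and 0 of 6, against 9.99%. CAGCTG was found in 0 of 12 and 1 of 6, against 13%, and TTGCNNAA in none of the 18, against 9.56%. The median number of CpGs was 2.5 in the lower and 6 in the higher promoters, with 6 over all promoters. These are matches of letters in short windows and were not tested.

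The sort was checked first. Slamf1, which encodes CD150 (chr1:171767127-171801184, plus strand, mm10), was at 39.0, 96.1, 75.0 and 36 CPM in the LT-HSC libraries and at 0 in all 4 ST-HSC libraries. Against a floor of 3 counts per library it was at least 1490-fold higher in LT-HSCs. This is the gate itself and no finding. The transcript followed the gate in every library.
The other gate genes were not called by edgeR. Kit was at 302 ± 98.4 CPM (SD, n = 4) in LT-HSCs and 269 ± 87.7 in ST-HSCs, with a log2 fold change of 0.15 (edgeR adjusted p = 1). Ly6a, which encodes Sca1, was at 119 ± 69.4 and 75.4 ± 28.2 CPM (0.62, adjusted p = 1). Cd48 was at 0.241, 13.2, 0.0624 and 3.88 CPM in LT-HSCs and at 21.1, 57.7, 89.9 and 58.9 CPM in ST-HSCs, although both gates take CD48- cells. Its values did not overlap, but it was not called (log2 fold change -3.74, SE 1.28, adjusted p = 0.709), whereas DESeq2 called it.

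Tet2 itself (chr3:133463679-133545139, minus strand, mm10) was at 26.9, 12.0, 16.1 and 40.4 CPM in the knockout LT-HSC libraries and at 23.6, 10.3, 25.9 and 15.1 CPM in the ST-HSC libraries. The groups overlapped (log2 fold change 0.33, SE 0.46, edgeR adjusted p = 1). Counts are summed over the whole gene, so reads of a transcript that lacks the deleted exons are counted with the rest and the level does not check the deletion. Of the 8 TET and DNMT enzymes tested, none was called by edgeR or DESeq2 and 1, the de novo methyltransferase Dnmt3a, had an unadjusted p under 0.05 (15 ± 8.25 CPM in LT-HSCs, 31.0 ± 4.72 in ST-HSCs, log2 fold change -1.08, adjusted p = 0.844). Over all genes, 2.3% had such a p and a lower level in LT-HSCs.

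Among the genes higher in LT-HSCs, Mllt3 (chr4:87769925-88033364, minus strand), a reader of acylated histones that maintains HSCs in culture, was at 172, 169, 182 and 247 CPM in LT-HSCs and at 49.2, 42.0, 38.9 and 47.5 CPM in ST-HSCs. The lowest LT-HSC library was thus above every ST-HSC library. The log2 fold change was 2.1 (SE 0.21, adjusted p = 0.0054), and Mllt3 was called whichever library was left out. Uba7 (chr9:107975505-107984060, plus strand), the activating enzyme for conjugation of the interferon-induced modifier ISG15, was at 160, 137, 184 and 98.2 CPM against 44.5, 43.5, 36.4 and 41.2 CPM (log2 fold change 1.78, SE 0.23, adjusted p = 0.0206). Tgfbr3 (chr5:107106570-107289629, minus strand), the co-receptor betaglycan that presents TGF-beta ligands, was at 43.7, 33.6, 38.1 and 29.3 CPM against 7.26, 11.9, 7.69 and 7.60 CPM (log2 fold change 2.04, SE 0.31, adjusted p = 0.0407). All LT-HSC libraries stood above all ST-HSC libraries for both genes. In Tet2-/- MEPs Tgfbr3 was higher still, at 50.4 CPM.
The other 3 genes were close to absent from ST-HSCs. Eya4, a transcriptional co-activator with phosphatase activity, was at 6.07, 12.5, 3.98 and 17.7 CPM in LT-HSCs and at 0 in ST-HSCs, except for 0.0502 CPM in replicate 2. Gkn3, a gastrokine gene known as a marker of bone marrow HSCs and of arterial endothelium, was at 11.7, 5.66, 45.1 and 4.83 CPM in LT-HSCs and at 0 in ST-HSCs, except for 0.0623 CPM in replicate 4. Lbhd2 was at 6.89, 2.71, 19.7 and 6.50 CPM in LT-HSCs and at 0 in all ST-HSC libraries, at least 217-fold higher against the floor. These genes varied several-fold among the LT-HSC libraries. The fitted log2 fold changes of Eya4 (7.99, adjusted p = 0.0407) and Gkn3 (8.64, adjusted p = 0.0406) depend on the prior count added to zeros.

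A list of 36 genes of LT-HSC identity had 35 members tested. Of these, 1 was called higher (Mllt3), against 0.0447% of all genes. At an unadjusted p under 0.05, 15 were higher in LT-HSCs and 1 was lower, against 2.71% and 2.3% of all genes in these directions. The median log2 fold change was 0.89, with 0 over all genes, and 30 of 35 fitted values were above 0 (49.6% of all genes). The summed level of the list was 3483 to 3783 CPM in the LT-HSC libraries and 1609 to 2110 CPM in the ST-HSC libraries, so that the groups did not overlap.
Values of some members that edgeR did not call follow. Pdzk1ip1 was at 186, 210, 291 and 227 CPM in LT-HSCs and at 93.0, 123, 82.6 and 92.3 CPM in ST-HSCs (log2 fold change 1.20, adjusted p = 0.0677). Sult1a1, a sulfotransferase, was at 235, 261, 329 and 376 CPM against 12.2, 17.4, 0.654 and 40.0 CPM (4.07, adjusted p = 0.142). Neither set of values overlapped. Tgm2 (2.80, adjusted p = 0.0739), Nupr1 (3.17, adjusted p = 0.083) and Ctnnal1 (2.52, adjusted p = 0.083) had values in the same direction. The exception was Vldlr, a lipoprotein receptor, with 7.89 CPM on average in LT-HSCs and 41.5 CPM in ST-HSCs (-2.41, adjusted p = 0.0677).
Several widely used stem cell genes were not called. Procr, which encodes EPCR, was at 69.0, 45.1, 49.4 and 53.6 CPM in LT-HSCs and at 35.9, 65.5, 5.50 and 29.3 CPM in ST-HSCs, with overlapping groups (log2 fold change 0.65, adjusted p = 1). The transcription factor genes Mecom (0.25), Hlf (0.48) and Meis1 (0.77) all had an adjusted p of 1. Hoxb5 was at 5.99 CPM in LT-HSCs and 1.57 CPM in ST-HSCs on average (1.90, adjusted p = 0.949). A list of 48 stem cell transcription factors, all tested, had no member called by edgeR and a median of 0.35. At an unadjusted p under 0.05, 4 were higher and 3 lower, against 2.71% and 2.3% of all genes. DESeq2 called 2 of the list higher and 1 lower, against 1.29% and 1.01% of all genes. Id1, an inhibitor of basic helix-loop-helix factors, had the smallest p in the list and was at 35.4, 37.7, 79.9 and 13.4 CPM against 3.40, 2.76, 9.83 and 5.49 CPM (2.92, SE 0.60, adjusted p = 0.111). Its groups did not overlap.

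Megakaryocyte and platelet genes stood on the LT-HSC side without an edgeR call. Of 27 tested, 9 had an unadjusted p under 0.05 and a higher level in LT-HSCs and 1, Plek, a lower level, with a median of 0.85, where 2.71% and 2.3% of all genes had such a p in these directions. The summed level was 2130 to 2865 CPM in LT-HSCs and 1340 to 1783 CPM in ST-HSCs. Vwf, the platelet adhesion factor that marks platelet-biased HSCs, was at 30.0, 28.0, 45.7 and 38.9 CPM in LT-HSCs and at 0.301, 0, 0.685 and 2.95 CPM in ST-HSCs (log2 fold change 5.12, SE 1.19, adjusted p = 0.197). Pf4, the chemokine of platelet granules, was at 64.9, 183, 311 and 142 CPM against 44.6, 25.5, 33.5 and 25.9 CPM (2.40, SE 0.43, adjusted p = 0.0682). Neither overlapped between groups, and both varied among libraries of 1 population. Gp9 (1.39, adjusted p = 0.226) and Clec1b (4.68, adjusted p = 0.436), which encode platelet receptors, were in the same direction. Itga2b, which encodes CD41, overlapped (0.90, adjusted p = 1). DESeq2 called 6 genes of this list higher, against 1.29% of all genes with that tool. Tubb1, among these 6, was not tested by edgeR. Of 16 erythroid genes tested, edgeR called none, 1 in each direction had an unadjusted p under 0.05 and the median was 0.07. DESeq2 called Blvrb higher and the globin gene Hbb-bt lower, against 1.29% and 1.01% of all genes.

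Among multipotent progenitor genes, of 18 tested, 5 were called lower in LT-HSCs (among them Cd34, Cd52, Emb and Plac8), 11 had an unadjusted p under 0.05 and a lower level, and none a higher one, beside 0.128% called lower and 2.3% at such a p over all genes. The median was -1.43, and the summed level was 1551 to 1989 CPM in LT-HSCs against 3633 to 4620 CPM in ST-HSCs. Cd34 (chr1:194938819-194961279, plus strand), a sialomucin whose absence marks the most primitive mouse HSCs and which was not gated in either population, was at 212, 218, 113 and 141 CPM in LT-HSCs and at 615, 703, 681 and 628 CPM in ST-HSCs (log2 fold change -1.97, SE 0.24, adjusted p = 0.0206). The ST-HSC libraries lay close together and far above the LT-HSC libraries.
Cd52 (chr4:134082448-134095082, minus strand), a small surface glycoprotein of lymphocytes, was at 4.00, 5.06, 6.33 and 3.23 CPM against 32.4, 45.1, 61.0 and 60.6 CPM (-3.44, SE 0.35, adjusted p = 0.0054). Plac8 (chr5:100553725-100572245, minus strand) was at 79.3, 197, 97.3 and 82.2 CPM against 642, 874, 1290 and 820 CPM (-3.02, SE 0.35, adjusted p = 0.0153). Both were several-fold lower in every LT-HSC library than in any ST-HSC library. Emb, which encodes embigin, a chaperone of lactate transporters, was at 129 ± 23.2 against 348 ± 37.7 CPM (-1.46, adjusted p = 0.0206).
Flt3, the cytokine receptor that marks lymphoid-primed progenitors, was at 8.75, 6.92, 0.749 and 12.9 CPM in LT-HSCs and at 137, 66.0, 71.3 and 73.9 CPM in ST-HSCs. The groups did not overlap, but edgeR did not call the gene (-3.58, SE 0.71, adjusted p = 0.0908). The same held for the tetraspanin gene Cd53, at 32.5 and 301 CPM on average (-3.24, adjusted p = 0.0677), and for Cdk6, the kinase that speeds exit of HSCs from quiescence, at 235 ± 85.0 and 504 ± 104 CPM (-1.13, adjusted p = 0.267). DESeq2 called Flt3, Cd53 and Cdk6 lower.

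**Figure D2:**
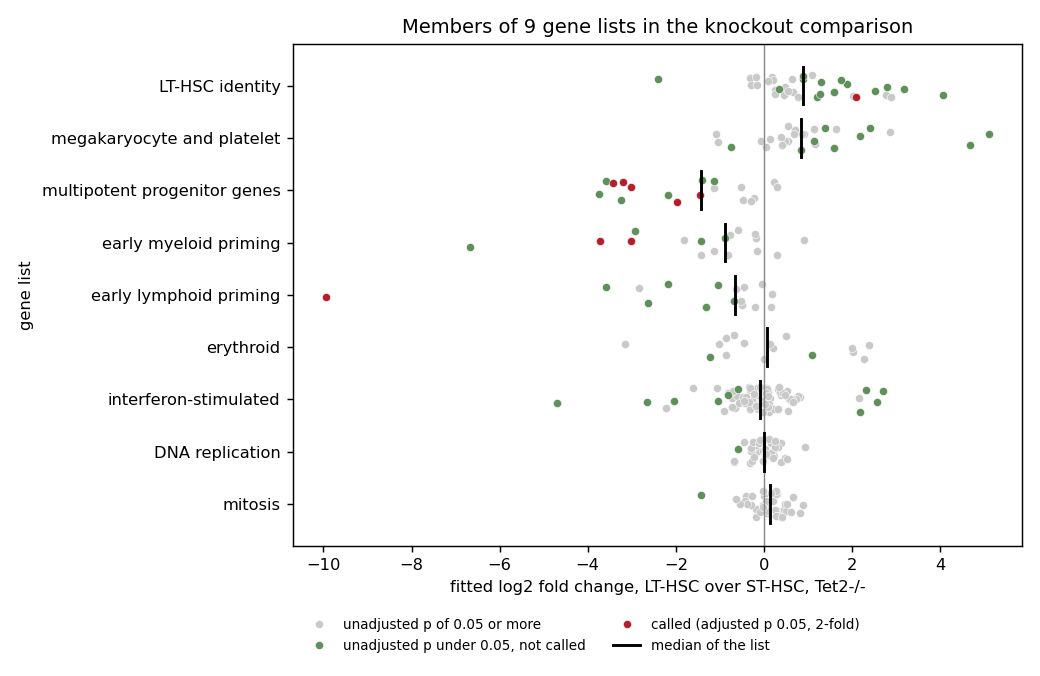
Fitted log2 fold change of LT-HSCs over ST-HSCs in Tet2-/- for each tested member of 9 gene lists (points, colored by call), with the median of each list as a black bar. Medians stand at 0.89 for LT-HSC identity, 0.85 for megakaryocyte genes and -1.43 for multipotent progenitor genes, and near 0 for erythroid, interferon-stimulated, DNA replication and mitosis genes.

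Early lymphoid and myeloid genes were lower in LT-HSCs where they passed the test. Of 16 lymphoid genes tested, 1 was called (Dntt) and 7 had an unadjusted p under 0.05 and a lower level, with none higher (median -0.65), where 0.128% of all genes were called lower and 2.3% had such a p and a lower level. Dntt (chr19:41029275-41059525, plus strand), the terminal transferase that adds bases at antigen receptor joints, was at 0 in 3 LT-HSC libraries and 0.0595 CPM in replicate 3, and at 28.8, 16.8, 42.5 and 68.4 CPM in ST-HSCs (adjusted p = 0.00531). Transcripts were thus nearly confined to ST-HSCs in these 8 libraries, and the fitted value of -9.93 depends on the prior count. The lymphoid factor gene Sox4 (-1.04, adjusted p = 0.335), the immunoglobulin gene Ighm (-2.64, adjusted p = 0.869) and Gpr171 (-1.31, adjusted p = 0.0544) were not called by edgeR. DESeq2 called 5 genes of the list lower, Gpr171 and Sox4 among them, against 1.01% of all genes with that tool. Blnk, also among these 5, was not tested by edgeR.
Of 17 early myeloid genes, 2 were called lower (Mpo and Plac8) and 6 had an unadjusted p under 0.05 and a lower level, with none higher (median -0.89), beside the same shares over all genes. Mpo (chr11:87793581-87804413, plus strand), the myeloperoxidase of neutrophil granules, was at 3.56, 8.10, 5.77 and 6.68 CPM in LT-HSCs and at 88.1, 50.7, 83.0 and 93.3 CPM in ST-HSCs (-3.73, SE 0.34, adjusted p = 0.00412). The lowest ST-HSC library exceeded the highest LT-HSC library several-fold. Csf1r, the macrophage growth factor receptor, was at or under the floor in all LT-HSC libraries and at 5.27, 6.03, 0.810 and 1.34 CPM in ST-HSCs, at least 83.5-fold higher on average there. It was not called by edgeR (adjusted p = 0.0965). Csf3r, the receptor of granulocyte growth factor, had a value of -1.44 (adjusted p = 0.423). DESeq2 called both lower.

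The firmest call was Ccl3 (chr11:83647844-83649355, minus strand), a chemokine that attracts monocytes. It was at 7.58, 9.72, 7.13 and 8.19 CPM in LT-HSCs and at 247, 412, 265 and 235 CPM in ST-HSCs. The LT-HSC values differed little from each other and were far below every ST-HSC value (log2 fold change -5.17, SE 0.27, adjusted p = 6.66e-05). Ccl3 was called in all 13 alternative fits, the only called gene of which this was true. Wfdc17 (chr11:83703991-83706268, plus strand), a secreted whey acidic protein of myeloid cells, lies 54636 bases away and was at 7.51, 22.9, 11.4 and 32.5 CPM against 219, 199, 215 and 167 CPM (-3.45, SE 0.44, adjusted p = 0.0206). The groups were far apart for it too. The related chemokine gene Ccl4, named after its value was seen, was at 118 CPM in LT-HSCs and 502 CPM in ST-HSCs on average (-2.11, adjusted p = 0.0661), and was called by DESeq2 only.
Of the other lower calls, Tyrobp, which encodes the adaptor DAP12 of myeloid and natural killer receptors, was at 2.34, 2.96, 7.90 and 5.26 CPM against 47.0, 42.4, 64.0 and 38.3 CPM (-3.40, adjusted p = 0.0206). Tespa1, a thymocyte signaling protein, was at 0.925, 7.25, 8.77 and 4.90 CPM against 87.5, 82.1, 105 and 90.7 CPM (-4.10, adjusted p = 0.0309). Neither gene overlapped between groups, and the LT-HSC libraries were spread more widely than the ST-HSC libraries in relation to their mean.
Ncf4, a subunit of the phagocyte oxidase, was at 17.4 ± 2.43 against 61.1 ± 15.2 CPM (-1.83, adjusted p = 0.0394). H2-Ob, a chain of the class II modulator H2-O, was at 17.8 ± 4.46 against 67.5 ± 20.3 CPM (-1.94, adjusted p = 0.0479) and was the only called member of 25 tested antigen presentation genes. Over all genes, 0.128% were called lower. Gcsam, a signaling protein of germinal center B cells, was at 8.87 ± 3.45 against 55.7 ± 11.5 CPM (-2.67, adjusted p = 0.0271). The remaining lower calls were Bex6 (-3.66), the receptor gene Adgrg3 (-2.95), the F-box gene Fbxw4 (-2.71), H2afy, which encodes the histone variant macroH2A1 (-1.47), the protease inhibitor gene Serpinb1a (-1.35) and Tmsb10, which encodes an actin-binding thymosin (-1.31). Their edgeR adjusted p ranged from 0.0206 for Bex6 to 0.0406 for Fbxw4. Of 28 cytokine receptors tested, 8 had an unadjusted p under 0.05 and a lower level in LT-HSCs and 2 a higher one (2.3% and 2.71% of all genes), and edgeR called Tgfbr3 alone (0.0447% of all genes called higher). DESeq2 called Tgfbr3 higher and Csf1r, Csf3r, Flt3 and Il1r1 lower (1.29% and 1.01% of all genes with that tool). Among the lower ones was the interleukin-1 receptor gene Il1r1, at 5.64 CPM in LT-HSCs and 26.5 CPM in ST-HSCs on average (-2.26, adjusted p = 0.131).

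Levels of markers of other cell types are given for whole lists. The summed level of 14 neutrophil markers was 0.804 to 5.59 CPM in LT-HSCs and 5.57 to 17.0 CPM in ST-HSCs, with 6 of the 14 at 0 in all 8 libraries and 3 tested. For 15 T and NK cell markers it was 45.5 to 161.5 CPM and 131.9 to 375.6 CPM, and for 14 macrophage and dendritic markers 11.2 to 21.6 CPM and 32.1 to 49.0 CPM. The ranges overlapped for neutrophil and for T and NK cell markers but not for macrophage and dendritic markers. B cell markers overlapped too, at 39.0 to 100.2 CPM and 59.4 to 86.2 CPM. Mast cell and basophil markers were at 9.36 to 14.9 CPM and 7.59 to 41.3 CPM, and stromal and endothelial markers at 99.0 to 139.4 CPM and 121 to 153.9 CPM. With edgeR, no member of these 6 lists was called and 5 had an unadjusted p under 0.05, each lower in LT-HSCs. Over all genes, 2.3% had such a p and a lower level. Tested were 3 neutrophil, 3 B cell and 7 T and NK cell markers. So were 6 macrophage and dendritic, 2 mast cell and basophil and 6 stromal and endothelial markers. DESeq2 called Itgam of the neutrophil list and Csf1r and Ccr2 of the macrophage and dendritic list lower, against 1.01% of all genes. The neutrophil defining gene S100a9 was at 0 in 3 LT-HSC libraries and reached 4.96 CPM in ST-HSCs. Of the B cell genes, Cd79a was below 1 CPM in all 8 libraries. Cd79b was at 37.5 to 95.7 CPM in LT-HSCs and 59 to 84.6 CPM in ST-HSCs, and made up most of the summed B cell level. Nkg7, a granule protein gene of NK and T cells, was the only marker of its list with an unadjusted p under 0.05, at 37.7, 143, 112 and 47.2 CPM against 108, 280, 350 and 221 CPM (-1.53, adjusted p = 0.538), with overlapping groups. The part of these markers in the lower calls was not tested.

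Of 38 DNA replication genes and 40 mitosis genes tested, none was called by edgeR or DESeq2 and 1 in each list had an unadjusted p under 0.05, with medians of 0 and 0.13. Both genes were lower in LT-HSCs, a direction in which 2.3% of all genes had such a p. The summed level of mitosis genes ran from 1190 to 3057 CPM in LT-HSCs and from 727.1 to 3162 CPM in ST-HSCs, a wider spread within a population than between them. Mki67 was at 63.9, 90.6, 120 and 234 CPM in LT-HSCs and at 72.2, 72.1, 160 and 130 CPM in ST-HSCs, and its groups overlapped (0.21, adjusted p = 1). Among G1 regulators, the cyclin gene Ccnd3 was at 70.0, 72.5, 55.5 and 61.4 CPM against 51.9, 25.1, 36.7 and 21.2 CPM without overlap, but was not called (0.92, adjusted p = 0.675).

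A list of interferon-stimulated genes, a class that the study followed in Tet2-/- cells, had no member called by edgeR among 81 tested. Of this list, DESeq2 called Gbp4 and Gbp8 higher and Ifi27l2a lower. Unadjusted p-values under 0.05 were found for 4 members with a higher and 6 with a lower level in LT-HSCs. Over all genes, 2.71% and 2.3% had such a p in these directions, and DESeq2 called 1.29% higher and 1.01% lower. The median of the list was -0.10. The summed level overlapped, at 7669 to 11460 CPM in LT-HSCs and 7148 to 11010 CPM in ST-HSCs. Members differed in direction. The guanylate-binding protein gene Gbp8 was at 33.7, 31.8, 38.9 and 17.8 CPM in LT-HSCs and at 3.27, 9.44, 2.68 and 4.62 CPM in ST-HSCs (2.58, adjusted p = 0.0808), and Gbp4 had a value of 2.18 (adjusted p = 0.401). Ifi27 was at 171 ± 37.1 against 294 ± 27.2 CPM (-0.81, adjusted p = 0.227), and Rtp4 had a value of -1.04 (adjusted p = 0.447). Neither Gbp8 nor Ifi27 overlapped between groups. Uba7, which edgeR called higher, was not in this list. Nor were Pml and Gbp11, which DESeq2 called higher, and Ifi206, which it called lower. Of 18 genes of DNA and RNA sensing, none was called by edgeR or DESeq2 and 1 had an unadjusted p under 0.05. Tmem173, which encodes STING, was at 60.7, 88.1, 36.8 and 50.1 CPM in LT-HSCs and at 45.1, 46.8, 50.4 and 129 CPM in ST-HSCs, with overlapping groups (-0.23, adjusted p = 1).

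Retinoid and aldehyde genes had a median of 0.58 over 12 tested, and Aldh1a1, the aldehyde dehydrogenase whose activity is used to enrich stem cells, was at 171, 174, 197 and 180 CPM in LT-HSCs and at 8.61, 19.4, 36.8 and 65.3 CPM in ST-HSCs (2.45, SE 0.52, adjusted p = 0.122), and DESeq2 called it. The LT-HSC libraries lay within a narrow range and the ST-HSC libraries did not. Medians were -0.02 for 85 cytosolic ribosomal proteins, 0.03 for 78 mitochondrial ribosomal proteins, 0.02 for 95 nuclear oxidative phosphorylation genes, 0.02 for 47 proteasome genes and 0.13 for 23 glycolysis genes. With edgeR none was called and 1 gene in each of these 5 lists had an unadjusted p under 0.05, and DESeq2 called 1 gene, Mrps2. Of 53 DNA repair genes, edgeR called none and 1 had an unadjusted p under 0.05, with a median of -0.17. This was Xpc, which recognizes helix-distorting damage (25 ± 8.36 against 52.3 ± 7.70 CPM, -1.08, adjusted p = 0.387), which DESeq2 called. In the TGF-beta and BMP pathway edgeR called 1 of 22 genes (Tgfbr3), the median was 0.18, and DESeq2 called Id1 and Tgfbr3 higher. Over all genes, edgeR called 0.0447% higher and 0.128% lower, and DESeq2 called 1.29% and 1.01%. With edgeR, an unadjusted p under 0.05 was found for 2.71% of all genes with a higher level and 2.3% with a lower one.

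To place the 27 genes in the hierarchy, their mean levels were set beside those of 4 further Tet2-/- populations, as a description. They were the common lymphoid progenitors (CLPs) and, on the myeloid side, the common progenitors (CMPs) with their granulocyte-macrophage (GMP) and megakaryocyte-erythroid (MEP) progeny. Of the 7 higher genes, 6 had their highest mean in LT-HSCs and 1, Tgfbr3, in MEPs. Of the 20 lower genes, 5 had their highest mean in ST-HSCs, 3 in CMPs, 6 in GMPs and 6 in CLPs, and none in LT-HSCs or MEPs. These are ranks of means, and libraries of the leading populations could overlap. Fbxw4 was at 40 CPM in ST-HSCs and 38.6 CPM in CLPs, and Cd34 at 657 CPM in ST-HSCs and 618 CPM in GMPs. Mpo ran from 6.03 CPM in LT-HSCs and 78.8 CPM in ST-HSCs to 1960 CPM in CMPs and 23300 CPM in GMPs. In CLPs its mean was 2760 CPM, with single libraries from 1.71 to 7160 CPM. Dntt reached a mean of 803 CPM in CLPs, with libraries from 131 to 1660 CPM. In contrast, Ccl3, Wfdc17, Gcsam, Cd34 and Fbxw4 had their highest mean in ST-HSCs. Wfdc17 was at 200 CPM there and at 51.4 CPM in CMPs and 4.10 CPM in GMPs. Cd34 is part of the gates of CMPs, GMPs and MEPs. Mllt3 was at 96.2 CPM in MEPs, between its levels in LT-HSCs and ST-HSCs, and at 7.59 CPM in GMPs.

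**Figure D3:**
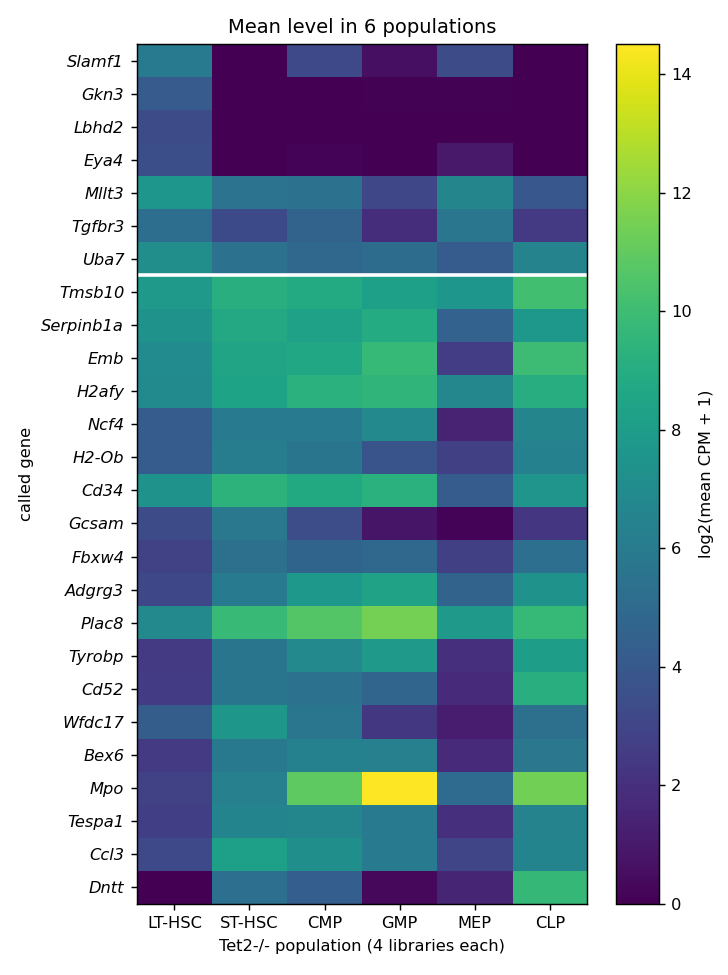
Mean level of 26 of the 27 called genes in 6 Tet2-/- populations of 4 libraries each, as log2(mean CPM + 1), with the 7 genes higher in LT-HSCs above the white line. Mpo reaches 23300 CPM in GMPs, and the 19 lower genes shown have their lowest mean in LT-HSCs or MEPs.

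The same contrast in WT mice, 3 libraries against 3, called 33 of 15824 genes (0.209%), 12 higher (0.0758%) and 21 lower (0.133%) in LT-HSCs. Leaving out 1 WT library gave 0 to 11 calls, and DESeq2 called 604. Of the 33, 14 were called in the knockout too, 51.9% of the knockout calls and 42.4% of the WT calls. Among them were Mllt3, Uba7 and Tgfbr3 on the higher side and Cd34, Emb, H2afy, H2-Ob, Mpo, Plac8, Serpinb1a, Tespa1, Tmsb10 and Wfdc17 on the lower side. All 27 knockout calls had the same direction in WT, and the WT groups did not overlap for any of them, against 16.8% of all genes tested in WT. Over the 14884 genes tested in both genotypes, 58.6% had the same direction. In turn, 31 of the 33 WT calls had the same direction in the knockout. Of the 33, 27 did not overlap there, against 4.77% of all genes tested in the knockout. The exceptions to the latter, named after their values were seen, were Rab27b, Srp14, Slc9a9, Ttc30a1, Lrrc8d and Tuba8. Rab27b, a small GTPase of secretory granules, had a log2 fold change of 2.33 in WT and 0.30 in the knockout (36 against 28.7 CPM).

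Whether the LT-HSC over ST-HSC change differed between the genotypes was tested as the interaction of population and genotype in all 14 libraries. With edgeR, 0 of 18385 genes were called (0%), with 730 at an unadjusted p under 0.05 and at least 2-fold (3.97%), and DESeq2 called 447 (2.16%). Among the knockout calls, Ccl3 had a change of -5.17 in the knockout and -7.02 in WT, a difference of 1.84 (SE 0.72, unadjusted p = 0.0233, adjusted p = 1). It was at 4.44 ± 3.59 CPM (SD, n = 3) in WT LT-HSCs and 572 ± 98.6 CPM in WT ST-HSCs, which was above every knockout ST-HSC library on average. Tgfbr3 had changes of 2.04 and 3.08, a difference of -1.05 (SE 0.36, unadjusted p = 0.0126, adjusted p = 1), and H2-Ob had changes of -1.94 and -2.86, a difference of 0.92 (SE 0.39, unadjusted p = 0.0366, adjusted p = 1). Slamf1 and Lbhd2 also had an unadjusted p under 0.05, with the ST-HSC groups at or near 0.
Away from the calls, Hlf, a transcription factor gene of HSCs, was at 170 ± 39.2 and 121 ± 36 CPM in knockout LT-HSCs and ST-HSCs and at 69.9 ± 45.1 and 186 ± 24.9 CPM in WT, a difference of 1.89 (SE 0.60, unadjusted p = 0.00748, adjusted p = 1). Satb1, a chromatin organizer of lymphoid priming, was at 3.13 ± 2.79 and 14.3 ± 8.08 CPM in the knockout and at 0.726 ± 0.547 and 36.8 ± 16.5 CPM in WT, a difference of 3.43 (SE 1.16, unadjusted p = 0.0107, adjusted p = 1). With edgeR, none of these differences survived adjustment over all genes. The 447 genes that DESeq2 called are not listed here by name. Medians of the multipotent progenitor genes were -1.43 in the knockout and -2.06 in WT, those of early lymphoid genes -0.65 and -1.39, and those of early myeloid genes -0.89 and -1.60. The medians of LT-HSC identity genes were 0.89 and 1.08. Each median covers the list members tested in that genotype, which for early lymphoid genes were 16 in the knockout and 18 in WT. These differences between medians were not tested.

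**Figure D4:**
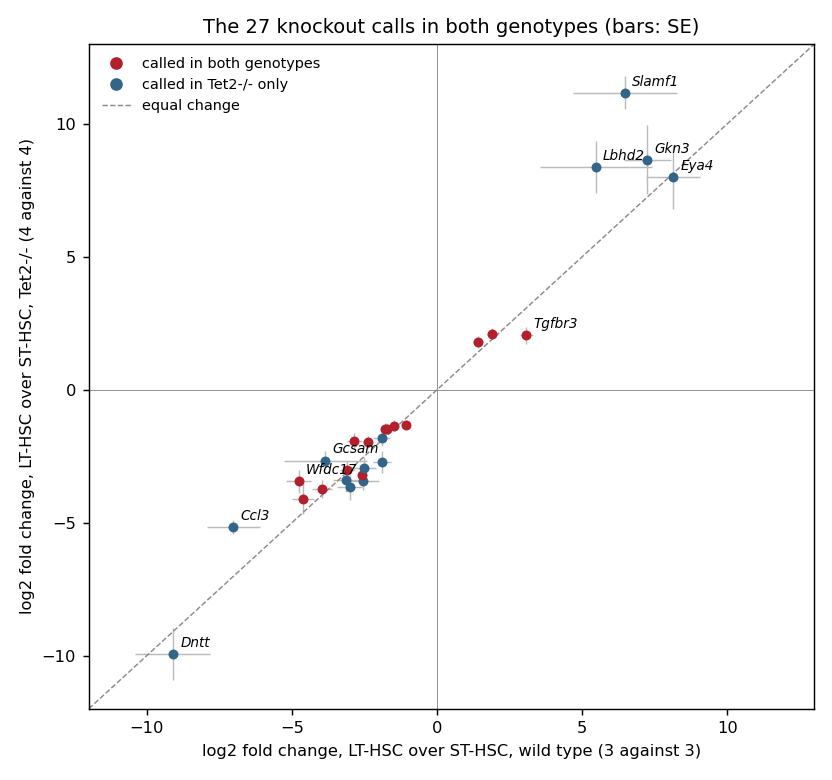
Log2 fold change of LT-HSCs over ST-HSCs for the 27 knockout calls, in WT (horizontal axis, 3 against 3 libraries) and Tet2-/- (vertical axis, 4 against 4), with bars for the standard error and a dashed line of equal change. All 27 lie in the quadrants of equal sign, 14 of them called in both genotypes (red), and Ccl3 lies above the line at -5.17 against -7.02.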

How the data were processed

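RNA was amplified by a modified SMART-Seq2 protocol from sorted cells and sequenced. Reads were trimmed with Trim Galore and mapped to mm10 with Hisat2, and the authors deposited raw counts per gene, with 1 column per library. The counting program, its annotation and its strand setting are not given in the sources used here. Columns were matched to samples by the labels. Of 55421 genes in the table, 15673 passed the filterByExpr filter for the knockout comparison.

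Counts were tested with the quasi-likelihood test of edgeR 4.0.16 (TMM scaling, prior count 2, R 4.3.3) in the 8 libraries of the comparison, without covariates, and p-values were adjusted by Benjamini-Hochberg over all genes tested. A call needed an adjusted p under 0.05 and at least 2-fold. WT libraries were fitted in the same way, and the difference between genotypes as an interaction. Single genes were also permuted exactly on log2(CPM + 1). The steps were tested on simulated data. DESeq2 1.42.0, other size factors, no filter, a replicate block, a fit over 24 knockout libraries and leaving out each library were alternatives.

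The members and gene lists were chosen with earlier results of these data known. Named genes were Tet2, the gate genes, a few stem cell and progenitor genes, up to 15 called genes of largest change in each direction at 10 CPM or more (filled to 10 by smallest p) and the called or the 2 firmest members of each list. Other genes named were chosen after their values were seen. A few genes, 1 of them called, are counted but not reported here by name. Gene positions are from GENCODE vM21 on mm10. Columns holding LT-HSC libraries of a second set, which has no ST-HSCs, were not used here. With 59266087 to 88456663 counts per library, 3 counts were taken as the floor, and such floors cover counting error only, since no molecular identifiers were used.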

Additional observations from a re-analysis of the deposited data

Results flagged for a closer look

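Single libraries stood apart from the other 3 of their group by Dixon's criterion in 23 of 202 groups of 4 values (11.4%), where chance marks about 5%. In 7 of the 23 the other 3 libraries were at 0, where any count above 0 meets the criterion, so the share cannot be read against chance. Values are CPM, with the range of the other 3 libraries given second.

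Among called genes, Mllt3 was at 247 in LT-HSC replicate 5 (169 to 182), Plac8 at 197 in LT-HSC replicate 3 (79.3 to 97.3) and Gkn3 at 45.1 in LT-HSC replicate 4 (4.83 to 11.7). Ccl3 was at 412 in ST-HSC replicate 3 (235 to 265) and Tgfbr3 at 11.9 in the same library (7.26 to 7.69). Adgrg3 was at 79.8 (53.1 to 56.5) and Ncf4 at 38.4 (67.3 to 70.8) in ST-HSC replicate 2. Near 0, Dntt was at 0.0595 in LT-HSC replicate 3, Gkn3 at 0.0623 in ST-HSC replicate 4 and Eya4 at 0.0502 in ST-HSC replicate 2, with the other libraries at 0.

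Among genes not called, Flt3 was at 137 in ST-HSC replicate 2 (66.0 to 73.9) and Tmem173 at 129 in ST-HSC replicate 5 (45.1 to 50.4). The erythroid reductase gene Blvrb was at 107 in LT-HSC replicate 4 (62.7 to 68.9) and at 52.9 in ST-HSC replicate 5 (27.2 to 31.3). The mast cell genes Cpa3 and Fcer1a were at 2.64 in LT-HSC replicate 5 (9.04 to 10.2) and at 4.84 in ST-HSC replicate 5 (0 to 0.0502). In ST-HSC replicate 3, the endothelial and platelet gene Pecam1 was at 59.3 (35.2 to 38.7), the glycolytic kinase gene Pfkp at 34.8 (15.2 to 17.9) and Rpl39l at 0.222 (0 in the others). Rps10 was at 586 in ST-HSC replicate 4 (354 to 393). The myeloid genes Itgam (0.0703 in LT-HSC replicate 2), S100a9 (0.238 in LT-HSC replicate 3) and Csf1r (0.0298 in LT-HSC replicate 3) were at 0 in the other LT-HSC libraries.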

How the results depend on the processing

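All 27 knockout calls kept their direction in the 13 alternative fits, and Ccl3 was called in each. The number of calls was 401 with DESeq2 (225 higher, 176 lower), of which 124 were not tested by edgeR, 27 with DESeq2-type size factors, 18 without the filter on low counts (3 higher, 15 lower), 23 in the fit of 24 knockout libraries (14 of the 27 among them) and 549 at an unadjusted p. It was 25 without genes at the floor in 1 group, an alternative chosen after seeing the data. Leaving out each library in turn gave 6 to 13 calls. In WT the 33 calls became 604 with DESeq2, 22 without the filter, 793 at an unadjusted p and 0 to 11 when a library was left out, with 0 calls without WT ST-HSC replicate 3 or 5 and 2 without WT LT-HSC replicate 2. For the difference between genotypes, DESeq2 called 447 genes, an unadjusted p 730, and leaving out a library gave 0 to 1. The causes of these shifts were not tested.

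Directions turned for genes that were not called. Leaving out each library in turn, Tet2 ranged from -0.05 (without LT-HSC replicate 5) to 0.56, Kit from -0.05 (without ST-HSC replicate 4, and -0.04 without LT-HSC replicate 2) to 0.34, Mki67 from -0.28 (without LT-HSC replicate 5) to 0.45, Tmem173 from -0.47 to 0.28 (without ST-HSC replicate 5) and mt-Co1 from -0.06 (without LT-HSC replicate 4) to 0.31 on the log2 scale.

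With the replicate number as a block, 1 knockout gene was called (Ccl3), 0 in WT and 0 for the difference between genotypes, and adjusted p of the 27 genes ranged from 0.00395 to 0.459. The deviations of same-numbered LT-HSC and ST-HSC libraries from their group means correlated at 0.21, 0.09, 0.23 and -0.0086 for numbers 2, 3, 4 and 5. Numbers 2, 3 and 4 each correlated best with their own number and number 5 did not. This is a hint from the data and not from the design, and whether same-numbered libraries share a mouse was not settled.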

Other observations

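Some genes outside the edgeR calls had higher mean levels in LT-HSCs. The guanine deaminase gene Gda was at 50.9 CPM in LT-HSCs and 3.86 CPM in ST-HSCs on average (log2 fold change 3.69, edgeR adjusted p = 0.0677), and the selenoprotein gene Selenom at 25.7 and 5.52 CPM (2.19, adjusted p = 0.0551). The junctional adhesion gene Jam2 was at 26.8 and 7.12 CPM (1.89, adjusted p = 0.133). On the ST-HSC side, the integrin gene Itgal was at 0.435 and 17.4 CPM (-5.28, adjusted p = 0.249). None of the 4 overlapped between groups, and edgeR called none of them, whereas DESeq2 called all 4.

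DESeq2, run as an alternative, called more members of the same lists. Over all genes it called 1.29% higher and 1.01% lower. It called 8 of 36 LT-HSC identity genes higher (among them Ctnnal1, Mllt3, Mmrn1, Nupr1, Pdzk1ip1, Sult1a1 and Tgm2) and 1 lower (Vldlr), and 6 of 30 megakaryocyte and platelet genes higher (Clec1b, Gp9, Mmrn1, Pf4, Tubb1 and Vwf). Mmrn1 is counted in both lists. DESeq2 called 10 of 18 multipotent progenitor, 5 of 22 early lymphoid and 4 of 20 early myeloid genes lower, with Flt3 counted in 2 of these lists and Plac8 in 2. Tubb1 and the lymphoid gene Blnk were not tested by edgeR, and their DESeq2 log2 fold changes were 23.23 and -22.82. No DNA replication or mitosis gene was called by either tool.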
